A study of Caenorhabditis elegans with 6 samples.

Results

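The genes described here encode the calcium switch of the worm's muscle thin filaments: the troponin T genes *mup-2*, *tnt-2*, *tnt-3* and *tnt-4*, the troponin I genes *tni-1*, *tni-3* and *tni-4*, the troponin C genes *pat-10* and *tnc-2*, and the tropomyosin gene *lev-11*. They were chosen by symbol, as every probe set of the array whose platform annotation names 1 of these genes and no other. All 10 were found, among 17118 genes in all, with 18 probe sets between them. Where a gene had several, its brightest probe set, by mean level on the 6 arrays, gave the main value, and the others stand beside it.

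RNA of wild-type N2 *Caenorhabditis elegans*, the standard laboratory strain, was measured on 3 Affymetrix arrays of fed larvae of the L1 stage and 3 of embryos of mixed ages. The titles of the embryo samples carry the mark XX, which those of the L1 samples lack, and differ from each other only in the replicate letter. Per the labels, the larvae had 24 h to hatch in M9 buffer (20 °C) and were then kept for 3 h in liquid culture with HB101, a strain of *Escherichia coli* used as food, at 10 mg/mL, while the embryos were bleached out of gravid adults raised on HB101 plates. Both stages are whole animals, so muscle RNA was measured among that of all other tissues, and neither more muscle cells nor more RNA per muscle cell can be told from the other. Hatching without food and the feeding that followed belong to every L1 sample, so stage and feeding cannot be told apart. The source label of the L1 samples speaks of embryos, in conflict with their titles, descriptions and stage labels, which say L1 and which set the groups here. The labels also say nothing of separate cultures, so the p-values here rest on a spread between samples that could be technical only.

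The embryo arrays came from an earlier series, so set of arrays and stage likewise cannot be told apart. The 4 probe sets for the hybridisation control cre lay at 10.7 to 11.8 on L1 arrays and at 4.05 to 5.29 on embryo arrays, and the part of the set of arrays in the differences below was not tested. All values are RMA levels on a log2 scale, on which 1 unit is a doubling, and the number of arrays limits their precision. Arrays of 1 stage correlated at r = 0.9925 to 0.9967 across probe sets. All 7 listed marker genes of oocytes and early embryos fell in L1, with mean levels of 6.14 to 6.19 on L1 arrays and 10.96 to 11.22 on embryo arrays, and 1 of them (*pes-10*) lay at background in L1. All 5 markers of the larval intestine rose (means of 11.94 to 11.97 on L1 arrays, 7.49 to 7.77 on embryo arrays), as did 4 of 6 neuronal markers, with 1 lower (10.90 to 10.99 on L1 arrays, 8.85 to 9.09 on embryo arrays). Other tissues thus differed between the stages as well, and their part in the muscle gene differences was not tested. Of the muscle markers, 3 of 4 for body wall and 2 of 3 for pharynx rose and 1 of each fell, namely the transcription factor genes *hlh-1* (-0.91) and *ceh-22* (-1.85), and none lay at background in either stage. Among those that rose, *unc-54*, the main myosin heavy chain of body wall muscle, lay at 12.02 ± 0.05 in L1 and 9.25 ± 0.11 in embryos, and *myo-2*, a myosin heavy chain of the pharynx, at 9.88 ± 0.14 in L1 and 7.08 ± 0.02 in embryos (SD, n = 3 each).

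As background, striated muscle contracts when calcium binds troponin C. Troponin I, which holds the thin filament inhibited, then lets go, troponin T passes the signal to tropomyosin, and tropomyosin shifts along actin to let myosin bind. *C. elegans* has separate genes for troponins of body wall muscle, which moves the animal, and of the pharynx, the muscular pump that takes up food. *mup-2*, *tnt-2*, *tnt-3*, *tni-1*, *tni-3* and *pat-10* are known from body wall and other non-pharyngeal muscle, and *tnt-4*, *tni-4* and *tnc-2* from the pharynx. *lev-11* is the worm's tropomyosin gene and makes different isoforms for both kinds of muscle from separate promoters and by alternative splicing.

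Most of these genes had more RNA in L1 than in embryos. With limma, at a Benjamini-Hochberg adjusted p under 0.05 over all genes, 7 of the 10 rose (*tnt-2*, *tni-3*, *tnc-2*, *lev-11*, *tni-4*, *mup-2* and *tnt-4*), *tnt-3* fell, and *tni-1* and *pat-10* did not pass. Over all genes, 64.4% were called, with 33.2% higher and 31.2% lower in L1. A call as such is therefore common on these arrays, and the 7 rises among 10 genes are a count set beside that background, with no test. The median difference of the 10 genes was 0.99 log2 units (range -0.96 to 3.75), against 0.05 over all genes. Stages did not overlap for 8 of the 10, against 70.6% of all genes. With arrays centred on ribosomal protein genes, 7 of the 10 rose and 3 fell, where 22.1% of all genes rose and 58.8% fell. On every array all 10 main probe sets lay above 5.43, the highest level among 32 foreign control probe sets (bacterial and yeast sequences), which serve as a background.

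**Figure D1:**
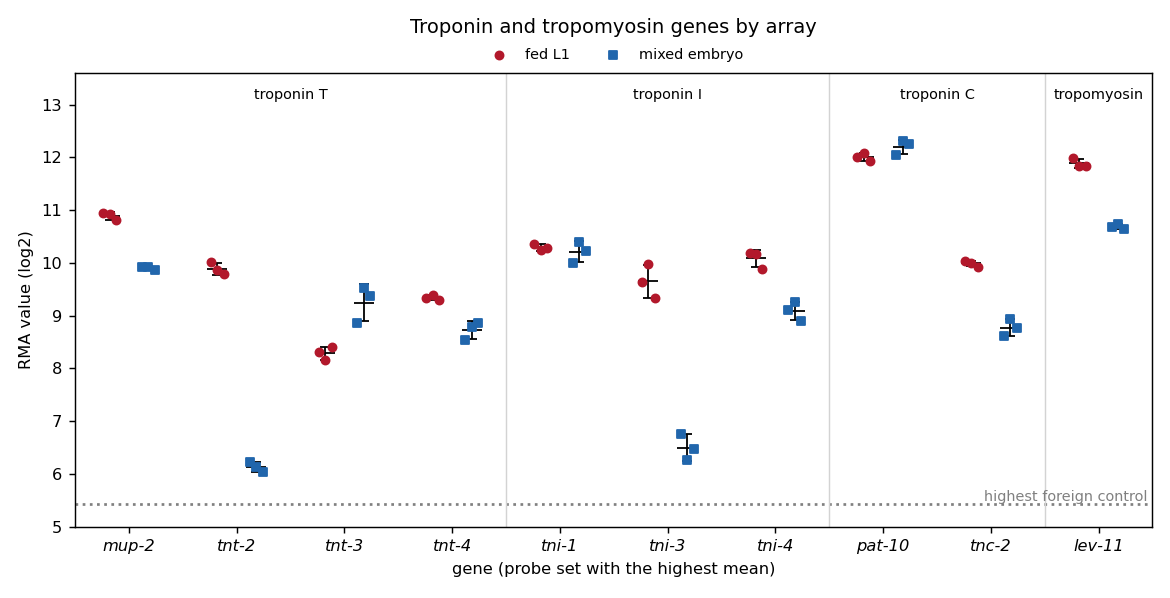
RMA level (log2, vertical axis) of the main probe set of each troponin and tropomyosin gene on the 3 fed L1 arrays (red circles) and the 3 mixed embryo arrays (blue squares), with the mean and SD of each stage in black and the highest foreign control value of 5.43 dotted. The L1 points lie above the embryo points for 7 genes and below them for *tnt-3*, and the stages overlap for *tni-1* and *pat-10*.

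The troponin T genes spanned the widest range of differences, with the largest rise and the only fall. *tnt-2*, one of the body wall genes, lay at 10.01, 9.86 and 9.79 on the L1 arrays, against 6.24, 6.12 and 6.04 on the embryo arrays. Embryos were thus low, less than 1 unit above the highest foreign control, and no array came near the other stage. The difference was 3.75 (SE 0.10, n = 3 per stage, limma adjusted p = 3.08e-10), a rise of 13.47-fold, above 98.2% of all genes in rank.

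*tnt-3*, also of body wall muscle, went the other way. It lay at 8.31, 8.16 and 8.40 on the L1 arrays and at 8.86, 9.52 and 9.37 on the embryo arrays. The stages did not overlap, although embryo replicate A lay nearer to L1 than the other embryo arrays, and the SD between embryo arrays (0.34) was about 3 times the median SD of all genes at that stage (0.12). *tnt-3* fell by 0.96 (SE 0.16, limma adjusted p = 0.000288), so that embryos had 1.94 times the L1 level. It was the only one of the 10 to fall in the values as deposited, and its fall ranged from 0.83 to 1.15 when 1 array was left out at a time.

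*mup-2*, the troponin T gene named for the muscle position defect of its mutants, was steady between arrays of a stage. Its levels were 10.95, 10.92 and 10.81 in L1, against 9.92, 9.93 and 9.87 in embryos. It rose by 0.99 (SE 0.09, limma adjusted p = 2.08e-06), with every L1 array above every embryo array. The pharyngeal gene *tnt-4* had the smallest rise of the 7. It lay at 9.34, 9.40 and 9.29 in L1 and at 8.55, 8.78 and 8.87 in embryos, with no overlap. Its difference was 0.61 (SE 0.10, limma adjusted p = 0.000355), or 1.53-fold, and only 0.23 (adjusted p = 0.0451) when arrays were centred on ribosomal protein genes.

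Among the troponin I genes, *tni-3* rose strongly and *tni-1* did not pass the test. *tni-3*, a gene of body wall muscle, lay at 9.64, 9.97 and 9.33 on the L1 arrays, against 6.77, 6.26 and 6.48 on the embryo arrays. Its stages lay far apart, but its spread within L1 (SD 0.32) was the widest of the 10 genes at that stage. The difference was 3.15 (SE 0.17, limma adjusted p = 5.43e-08), an 8.85-fold rise. Its other probe set read a smaller change, with 8.36, 8.89 and 8.53 in L1 and 6.60, 6.66 and 6.77 in embryos. That is a difference of 1.92 (SE 0.13, adjusted p over all probe sets 5.67e-07), so the direction was shared and the size differed by over 1 log2 unit.

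*tni-1*, another body wall gene, had 10.36, 10.24 and 10.28 in L1 and 10.00, 10.40 and 10.23 in embryos. The embryo arrays spanned both sides of the L1 arrays. The difference was 0.09 (95% confidence interval -0.16 to 0.33, limma adjusted p = 0.537), an interval that leaves room for a small change either way, and -0.30 (adjusted p = 0.0228) with ribosomal protein centring. The pharyngeal gene *tni-4* lay at 10.19, 10.18 and 9.89 in L1, against 9.11, 9.26 and 8.90 in embryos. Every L1 array was higher, and the gene rose by 0.99 (SE 0.12, limma adjusted p = 3.12e-05), 1.99-fold.

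A further troponin I gene, *unc-27*, is the main form of body wall muscle and stood in the list of thin filament genes rather than among the 10. It lay at 10.22, 10.34 and 10.13 in L1 and at 7.85, 8.26 and 8.02 in embryos, and rose by 2.19 (SE 0.12, limma adjusted p = 4.95e-08). Of the troponin I genes known from body wall muscle, *tni-3* (main probe set) and *unc-27* thus rose by over 2 log2 units. The other probe set of *tni-3* gave 1.92, and *tni-1* did not pass.

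Of the troponin C genes, the pharyngeal one rose and the body wall one did not pass. *tnc-2*, the pharyngeal calcium sensor, lay at 10.04, 10.00 and 9.93 in L1, against 8.62, 8.94 and 8.77 in embryos. L1 arrays were all about 1 unit or more above the embryo arrays, and *tnc-2* rose by 1.22 (SE 0.10, limma adjusted p = 1.58e-06), 2.32-fold. *pat-10*, the body wall form, whose loss arrests embryos paralysed, lay at 12.002, 12.08 and 11.93 in L1 and at 12.04, 12.30 and 12.25 in embryos. Both stages were high and overlapped, with a difference of -0.20 (95% confidence interval -0.42 to 0.03, limma adjusted p = 0.111).

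The direction for *pat-10* depended on the probe set, and its call on the scale and on 1 array. Its other probe set lay at 11.68, 11.91 and 11.63 in L1, against 10.95, 11.51 and 11.44 in embryos, a difference of 0.44 (SE 0.15, adjusted p over all probe sets 0.0266). Embryo replicate A was the lowest embryo array in both. Without it, the main probe set passed as a fall (-0.27, adjusted p = 0.0296). It also passed with each array centred on its median (-0.26, adjusted p = 0.0343) or on ribosomal protein genes (-0.58, adjusted p = 0.000175).

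Tropomyosin rose too. The main probe set of *lev-11*, a gene first found in screens for resistance to the drug levamisole, lay at 11.99, 11.84 and 11.84 in L1, against 10.68, 10.74 and 10.64 in embryos. The stages were over 1 unit apart with little spread inside them. The difference was 1.20 (SE 0.09, limma adjusted p = 5.88e-07), 2.30-fold.

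*lev-11* had 7 probe sets, of which 6 rose, and no file used here says which of its isoforms each one reads. The 5 that lay above the foreign control level on all arrays gave differences between 0.77 (SE 0.11) and 1.45 (SE 0.08). The one with the largest difference lay at 8.59, 8.48 and 8.45 in L1 and at 7.07, 7.04 and 7.06 in embryos. The one with the smallest of the 5 lay at 8.58, 8.42 and 8.36 in L1, against 7.87, 7.53 and 7.66 in embryos. In both, every L1 array lay above every embryo array, and the difference between their changes was not tested. A sixth was above the foreign control level in L1 only, at 6.06, 5.79 and 5.64, against 5.01, 5.03 and 4.91 in embryos. The size of its difference of 0.85 (SE 0.12) is therefore uncertain. The seventh lay under that level on all 6 arrays (difference -0.02, adjusted p over all probe sets 0.908).

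**Figure D2:**
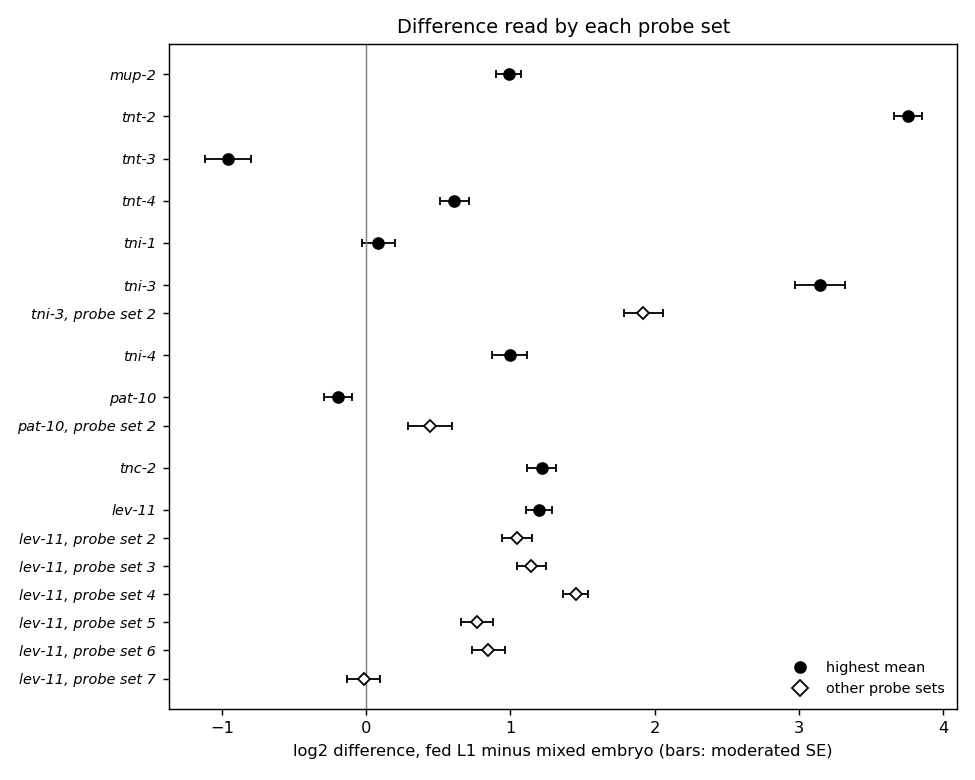
Log2 difference of fed L1 minus mixed embryo (horizontal axis, with the moderated SE) for each of the 18 probe sets of the troponin and tropomyosin genes, the main one of each gene filled and the others open. The points for *pat-10* lie on both sides of 0 (-0.20 and 0.44), those of *tni-3* at 3.15 and 1.92, and 6 of 7 for *lev-11* between 0.77 and 1.45.

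Over the 18 probe sets, 14 rose and 1 fell, where 31.9% of all 22548 probe sets rose and 63.3% were called. Of the 10 genes, 7 had a single probe set. The design of the probe sets also differed between the muscles. The main probe sets of *tnt-4*, *tni-4* and *tnc-2*, the pharyngeal genes, carry no letter that marks matches to related sequences. The main probe sets of the other 7 genes carry one (s or x). Other sequences, of the same gene or of related genes, may thus add to their values, and the part of such matches in the differences was not tested. Among probe sets without such a letter, 3 of the 4 genes covered rose and none fell. Of all 13618 genes with a probe set of that kind, 4487 rose and 3796 fell. The fourth of the genes covered, *lev-11*, was read there by its background-level probe set alone.

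Body wall and pharyngeal forms were set against each other within each array. For each subunit, the pharyngeal gene's log2 level was subtracted from the mean of the body wall genes', and the result is given relative to its mean over the embryo arrays, which cancels the brightness of single probes. For troponin C it was -1.46, -1.35 and -1.43 on the L1 arrays, against 0.00, -0.06 and 0.06 on the embryo arrays. By these probe sets the pharyngeal *tnc-2* gained 1.41 log2 units over *pat-10* (SE 0.05), and less with the probe sets of *pat-10* averaged (1.09) or with its second probe set (0.77). For troponin T the balance went the other way, at 0.71, 0.55 and 0.68 in L1 and 0.09, 0.04 and -0.14 in embryos, a shift of 0.65 (SE 0.09) towards the body wall genes. That mean holds *tnt-2*, *mup-2* and *tnt-3*, whose own differences run from 3.75 to -0.96, so it describes none of them.

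For troponin I it was 0.55, 0.66 and 0.65 in L1, against 0.01, -0.20 and 0.18 in embryos, a shift of 0.62 (SE 0.12) towards the body wall genes. This mean covers *tni-1* and *tni-3* and leaves out *unc-27*, which rose by 2.19 and was not tried in it. Its shift rests on *tni-3* alone, since *tni-1* on its own shifted by -0.91 (SE 0.16) against *tni-4*. The shift was 0.32 with the probe sets of a gene averaged and 0.0088 with the second probe set of *tni-3*, an alternative chosen after seeing the data. In each of the 3 comparisons the L1 arrays did not overlap the embryo arrays. An exact permutation test over the arrays gave p = 0.1 for each (2-sided, 3 comparisons, 0.1 after Benjamini-Hochberg adjustment), the smallest p that 3 arrays against 3 allow, so none can pass 0.05. The pharyngeal genes rose by 0.61 to 1.22 and spanned a narrower range than the body wall genes at -0.96 to 3.75, with 3 genes against 6 and no test of that spread.

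**Figure D3:**
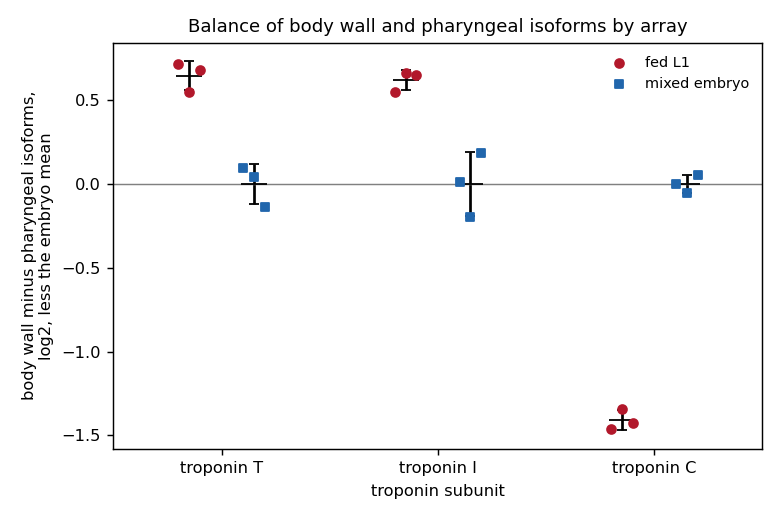
Per array, the mean log2 level of the body wall genes minus the level of the pharyngeal gene for troponin T, I and C, less the mean of the embryo arrays (vertical axis), with red circles for fed L1, blue squares for mixed embryo and the mean and SD in black. L1 arrays lie above the embryo arrays for troponin T and I, by 0.65 and 0.62 on average (0.0088 for troponin I with the second probe set of *tni-3*), and 1.41 below them for troponin C. The body wall mean for troponin I leaves out *unc-27*.

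Among the thin filament genes listed beside the 10, falls outnumbered rises. In that list of 18 genes, 15 were measured by a probe set of their own, of which 6 rose and 8 fell. The median of the 15 was -0.37. The list holds actin genes and those of its partners, and the troponin I gene *unc-27* is counted among its rises. The actin genes *act-3* and *act-4* changed by -0.37 (SE 0.10) and -0.48 (SE 0.09), while *act-1* and *act-2* were read only by probe sets shared among actin genes and are not given, and *tmd-1* is an older name of *unc-94*, which was counted once. The largest falls were those of *cas-2*, which encodes a cyclase-associated protein that acts on actin monomers (-1.65, SE 0.11), and of *unc-60*, the gene of cofilin, which severs and turns over actin filaments (-1.14, SE 0.09). The largest rise was that of *unc-87*, a calponin-related protein that binds and bundles actin filaments, at 2.52 (SE 0.11). The other rises were those of *unc-27* (2.19), *unc-94* (1.31), *ketn-1* (1.11), *clik-1* (0.88) and *gsnl-1* (0.74). Both stages are whole animals, so tissues other than muscle can add to these falls and rises. Their part was not tested.

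Thick filament genes, in contrast, mostly rose: 11 of 13, with 1 fall and a median of 1.08. The pharyngeal myosin heavy chain genes *myo-1* and *myo-2* rose by 3.13 (SE 0.09) and 2.80 (SE 0.10), against at most 1.22 for the pharyngeal troponin genes, with no test of that gap. The probe sets of *myo-1* and *myo-2* carry the letter s for related sequences, unlike those of the pharyngeal troponin genes. The part of such matches was not tested. The body wall myosin genes *unc-54* and *myo-3* rose by 2.77 (SE 0.09) and 0.78 (SE 0.09). *unc-45*, which encodes a chaperone that folds myosin heads, fell by 1.24 (SE 0.09). Of 15 genes of calcium handling and excitation in muscle, upstream of troponin, 12 rose and 1 fell, with a median of 1.19. The IP3 receptor gene *itr-1*, which also acts outside muscle, rose by 3.72 (SE 0.10) and the GABA receptor gene *unc-49* by 2.24 (SE 0.12), whereas the acetylcholine receptor subunit gene *lev-8* fell by 1.13 (SE 0.14). In L1 *lev-8* lay near the foreign control level (mean 5.78, against 5.43), so the size of its fall is uncertain.

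Most listed genes of muscle attachment and of muscle fate were lower in L1. Of 11 genes that anchor muscle to its surroundings, 8 fell and 1 rose, with a median of -0.50. The genes of integrin-linked kinase, *pat-4*, and of beta integrin, *pat-3*, changed by -1.44 (SE 0.11) and -1.32 (SE 0.09), and the zyxin gene *zyx-1* by 2.08 (SE 0.09). All 6 listed transcription factor genes of muscle fell, with a median of -1.32. *hnd-1*, a HAND-class bHLH factor of early mesoderm, changed by -3.58 (SE 0.09) and lay at foreign control level in L1, so the size is uncertain. *ceh-22*, an NK-type homeobox factor of pharyngeal muscle, changed by -1.85 (SE 0.17). Each of the 5 lists had 81.8% to 100% of its members called, against 64.4% of all genes, so a high share of calls is not particular to troponin and tropomyosin.

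**Figure D4:**
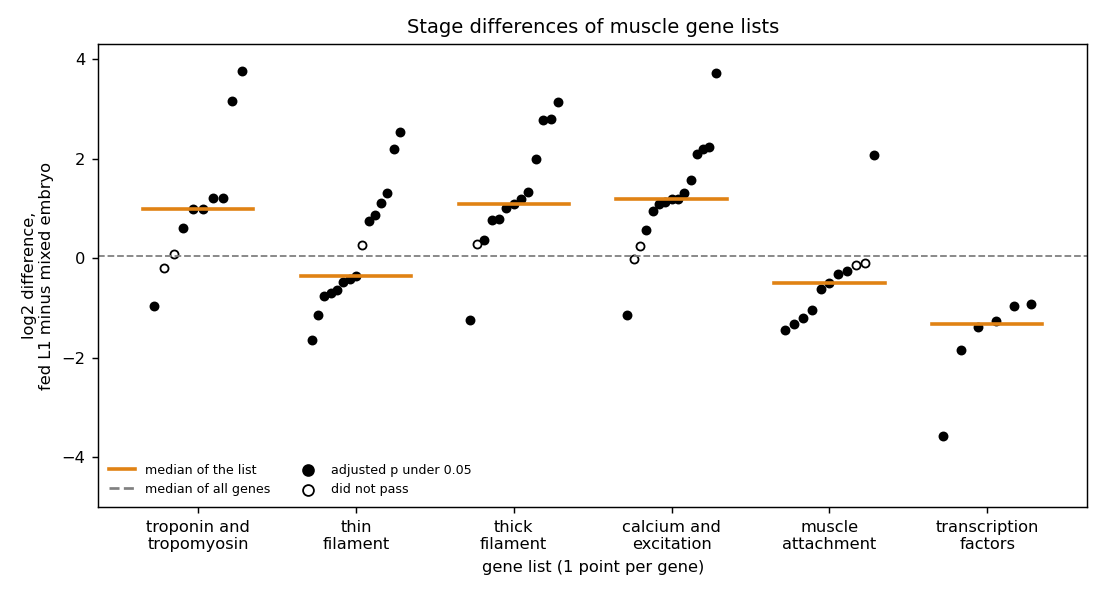
Log2 difference of fed L1 minus mixed embryo (vertical axis) for each gene of the troponin and tropomyosin set and of 5 muscle gene lists, filled where the limma adjusted p was under 0.05, with the list's median in orange and the median of all genes (0.05) dashed. The medians of troponin and tropomyosin (0.99), thick filament (1.08) and calcium genes (1.19) lie above that of all genes, and those of thin filament (-0.37), attachment (-0.50) and transcription factor genes (-1.32) below it.

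The 10 genes lie on chromosomes I, II, IV, V and X of the WBcel235 assembly, and 4 of them (*mup-2*, *tnt-2*, *tnt-3* and *tni-1*) are on X. The largest rise and the only fall, those of *tnt-2* and *tnt-3*, were both on X.

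Other genes with profiles most like those of *lev-11*, *tnt-2* and *tnt-3* were sought among the 10569 genes above the foreign control level in mean, by Euclidean distance between log2 values less the gene's own mean over the 6 arrays. For *lev-11* they were *ugt-60* (distance 0.0901), *klf-3* (0.0965) and *swt-1* (0.111), with differences of 1.23, 1.24 and 1.25. For *tnt-2* they were *brp-1* and *clec-50* (both 0.188) and *fbxc-58* (0.197), with differences of 3.68, 3.80 and 3.73. For *tnt-3* they were *K09G1.1* (0.128), *gpx-5* (0.186) and *W03F11.5* (0.190), with differences of -0.999, -1.005 and -0.948. With 2 stages such profiles are set mostly by the stage difference, so this likeness describes the 6 arrays only.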

How the data were processed

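Total RNA of 3 fed L1 and 3 mixed embryo samples, grouped by title against a source label that names embryos for all, was measured on 1-colour arrays. The deposited values are log2 levels made by the authors with RMA, per the submitters' processing notes. The RMA version, and whether all 6 arrays were normalized together, are not given in the sources used here. RMA equalises distributions, so a change in total RNA would not be seen.

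Of 22625 probe sets, 77 controls were left out, and 20766 of the 22548 others name 1 gene of the platform annotation (17118 genes). Each gene's probe set of highest mean was fitted with limma 3.58.1 in R 4.3.3 (lmFit, eBayes without trend, 2-sided), with p adjusted over all genes, and over all probe sets in a second fit. SE is limma's moderated one, except for the balance of isoforms, where it comes from the arrays of each stage. No filter on low levels was used. The limma fit was tried on simulated data with far fewer changed genes than were called here. Normalization, choice of probe set and centring were not tried in that way.

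The genes, lists and tests were chosen with earlier results of these data known. Named genes were the 10, *unc-27*, the actin and myosin heavy chain genes, and in each list the 2 largest called changes in its commoner direction and the largest in the other. In the thin filament list the other rises are named too. Alternatives were quantile normalization, centring on the array median or on 75 ribosomal protein genes, filters at the 25th and 50th percentile of level, trend and robust eBayes, array weights, other choices of probe set and leaving out each array.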

Additional observations from a re-analysis of the deposited data

How the results depend on the processing

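The filters on level, trend and robust eBayes, array weights and the fit over all probe sets leave a gene's difference itself unchanged. Only its error and adjusted p can move there. For the 7 genes with a single probe set, averaging probe sets or taking the second also repeats the main difference. Of 174 recomputed differences of single members, many of them such repeats, 166 kept their direction and side of the threshold. The others were 5 for *pat-10* (-0.26 with array median centring, -0.58 with ribosomal protein centring, -0.27 without embryo replicate A, each a call, 0.44 from the probe set of second highest mean, and 0.12 with its probe sets averaged, not a call), 2 for *tni-1* (-0.30 with ribosomal protein centring, a call, and -0.0196 without embryo replicate A), and -0.0178 for *lev-11* from its background-level probe set. The count of members that fell, 1 as deposited, was accordingly 2 with array median centring, 3 with ribosomal protein centring and 1 to 2 when 1 array was left out, the higher value without embryo replicate A. Among probe sets with no letter for related sequences, 4487 of 13618 genes rose and 3796 fell. There the count of members that fell was 0, with 3 rising among the 4 members covered. Leaving out any single array kept 7 rising. Ribosomal protein centring moved the median difference of all genes from 0.05 to -0.34 and gave 3778 genes higher and 10071 lower (27.3% of calls higher, against 51.6% as deposited), with 2 calcium and excitation genes falling. With genes below the 50th percentile of level left out, fewer were tested and 3274 were higher. The balance of body wall and pharyngeal genes moved to 0.32 for troponin I and to -1.09 for troponin C with a gene's probe sets averaged, to 0.0088 and -0.77 with the probe sets of second highest mean, and to -1.49 for troponin C after quantile normalization. No paired analysis was possible because the replicates of the stages carry different names (numbers for L1, letters for embryos). The alternatives without genes at foreign control level and with the probe set of second highest mean were chosen after seeing the data. Values near the foreign control level, as for 2 probe sets of *lev-11*, have little room to show a change.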
